A study of Mus musculus with 7 samples.

Results

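The nephron segment transcripts described here are 38 kidney genes, of 55335 rows in the deposited count table, each found by its symbol. They comprise 3 glomerular genes, 1 juxtaglomerular gene, 13 proximal tubule genes, 6 thick ascending limb genes, 4 distal tubule genes, 7 collecting duct genes and 4 genes of several segments. They were chosen by the high counts of kidney genes in 1 library of sorted heart cells, naive replicate 2. The excess of that library over the others is therefore described without a test, and no support is drawn from it.

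The libraries were made from ILC2s, the innate lymphoid cells of type 2, which lack antigen receptors and carry ST2, the receptor of interleukin 33. They were collected from digested mouse hearts by flow cytometry as CD45+ Lineage- ST2+ cells. The 3 naive libraries came from hearts that were not transplanted. The 4 allograft libraries came from BALB/c hearts taken 7 days after transplantation into C57BL/6 recipients, a model that rejects acutely. Each library pooled the ILC2s of 4 to 7 hearts. The labels gave no genetic change for either group, and gave neither the age, the sex nor, for naive hearts, the strain. The same time of 7 days stands on the labels of the naive libraries. No kidney was sampled in the groups used here.

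The nephron is the filtering unit of the kidney. Plasma is filtered in the glomerulus, and the proximal tubule recovers most of the filtered glucose, phosphate, amino acids and protein and secretes organic anions. The thick ascending limb takes up salt without water, the distal convoluted tubule adjusts salt and calcium, and the collecting duct sets the final water, sodium and acid content of the urine. Each segment carries its own transporters, so a transcript such as Umod or Aqp2 marks a stretch of the tubule.

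Promoters of 4 members are shown because these genes belong to the proximal tubule and thick limb, which gave the largest CPM sums, and hold a short motif known from kidney promoters. Each is the 250 bases before the RefSeq start of the gene (GRCm38.p6), written 5′ to 3′ on the strand of the gene. The capitals mark this motif, GTTAAT, or its reverse complement ATTAAC. Slc22a6 and Slc22a8 are organic anion transporters, Slc34a1 is a phosphate transporter and Umod encodes uromodulin. The windows are chr19:8617746-8617995 on the plus strand for Slc22a6, chr19:8592932-8593181 on the plus strand for Slc22a8, chr13:55399398-55399647 on the plus strand for Slc34a1 and chr7:119479263-119479512 on the minus strand for Umod.
Slc22a6: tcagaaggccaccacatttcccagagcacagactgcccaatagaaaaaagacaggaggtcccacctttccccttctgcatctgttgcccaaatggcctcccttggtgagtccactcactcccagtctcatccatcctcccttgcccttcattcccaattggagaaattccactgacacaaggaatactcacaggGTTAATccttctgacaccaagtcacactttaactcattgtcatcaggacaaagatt
Slc22a8: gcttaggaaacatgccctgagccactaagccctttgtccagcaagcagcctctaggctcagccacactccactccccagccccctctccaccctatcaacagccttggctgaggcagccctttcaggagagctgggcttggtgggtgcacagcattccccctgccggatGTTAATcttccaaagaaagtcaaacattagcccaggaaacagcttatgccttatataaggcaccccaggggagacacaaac
Slc34a1: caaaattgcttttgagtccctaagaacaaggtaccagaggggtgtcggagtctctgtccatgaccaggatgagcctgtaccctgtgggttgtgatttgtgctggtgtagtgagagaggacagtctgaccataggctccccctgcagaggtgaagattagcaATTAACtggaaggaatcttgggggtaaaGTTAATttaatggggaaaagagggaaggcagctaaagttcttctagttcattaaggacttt
Umod: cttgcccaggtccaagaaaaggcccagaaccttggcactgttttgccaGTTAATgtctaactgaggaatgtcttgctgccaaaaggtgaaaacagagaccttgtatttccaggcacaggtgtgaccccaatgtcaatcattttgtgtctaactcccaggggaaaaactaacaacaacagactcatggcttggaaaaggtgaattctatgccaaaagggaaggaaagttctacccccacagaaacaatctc
Counted back from the start, the capitals begin at base -56 in Slc22a6, -81 in Slc22a8, -89 and -61 in Slc34a1 and -202 in Umod. RefSeq promoters were found for 31 of the 38 members. On either strand the motif lay in 6 of these 31 genes, the other two being Miox and Pck1, and in 7.49% of 27025 genes of the table. Of all 32851 promoters in it, 6.43% held the motif. A match is a string of letters and not a measured binding site. In the GENCODE M21 annotation the Slc22a8 and Slc34a1 windows lie within longer transcripts of the same genes, and the last bases of the Umod window lie in one of its exons. Slc22a6 and Slc22a8 are neighbours on chromosome 19, with 6204 bases between them in the GENCODE M21 annotation, and both had counts in naive replicate 2 alone.

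Naive replicate 2 went against its label. All 11 ILC2 marker genes were lower there than in the other 6 libraries. Their summed level was 1147 CPM (counts scaled to the library total), against 10715 and 14664 CPM in naive replicates 1 and 3 and 11153 to 11795 CPM in the allografts. Id2 alone gave 977 CPM of the sum in naive replicate 2, against 4338 to 7565 CPM elsewhere, so that sum rests mostly on Id2. Over the 11 markers, the median ratio of naive replicate 2 to the highest other library was 0.0153. Gata3, the transcription factor that defines ILC2s, stood at 34.8 CPM against 654 to 970 CPM elsewhere. Mitochondrial genes took 26.5% of its counts, against 2.04% to 3.11% in the others. Library totals ran from 29107326 to 53044907 counts, so that 3 counts, the limit that a count of 0 allows, were worth 0.0566 to 0.103 CPM. Where the other 6 libraries held no count of a gene, its excess was computed against the highest of these floors and is a lower bound. These limits and the intervals below cover counting error only. In bulk RNA, fewer cells of a type and less RNA per cell cannot be told apart.

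The 38 genes took 2.17% of all counts in naive replicate 2 (95% Wilson interval 2.166% to 2.174%). The share was 0.0135% in naive replicate 1, 0.106% in naive replicate 3 and 0.0232% to 0.0305% in the 4 allografts. As sums, these were 21702 CPM in naive replicate 2, 135 and 1063 CPM in the other naive libraries and a mean of 268 ± 31.8 CPM (SD, n = 4) over the allografts. All 38 genes were above the 3-count floor in naive replicate 2, against 14 and 18 in naive replicates 1 and 3 and 21 to 27 in the allografts. Naive replicate 3 thus held the next largest sum, and the allografts lay between the other two naive libraries. Naive replicate 2 was highest for 37 of the 38 genes. It exceeded the highest other library at least 10-fold for 27 of them, where 6.34% of the 28138 genes with a count did so, and at least 100-fold for 12, where 0.761% did. These counts follow from the choice of genes. The closest members above 10-fold were Slc12a3 (10.8), Cubn (11.4) and Klk1 (11.5), and the closest below were Miox (9.51), Aqp3 (7.57) and Scnn1g (6.96).

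**Figure D1:**
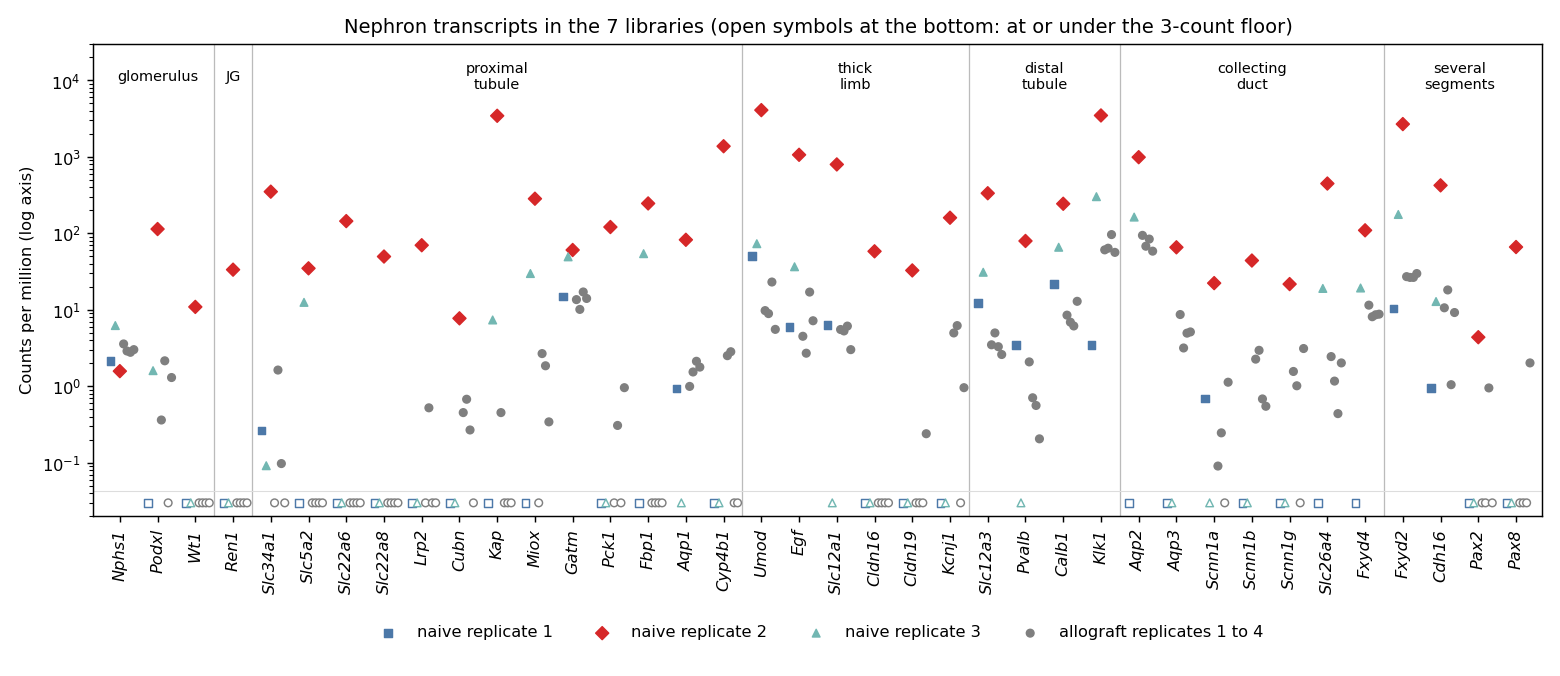
CPM (log axis) of the 38 nephron genes in each of the 7 libraries, ordered by nephron part; 1 symbol is 1 library, and open symbols at the bottom are values at or under 3 counts. Naive replicate 2 lies above every other library for 37 genes, and Nphs1 is the exception.

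The glomerular genes were few and unequal. Podxl, the podocalyxin of podocytes and endothelium, stood at 114 CPM in naive replicate 2. It was 0 and 1.61 CPM in naive replicates 1 and 3 and 0.363, 2.16, 0 and 1.31 CPM in allograft replicates 1 to 4. Wt1, a transcription factor of podocytes, stood at 10.9 CPM and had no count in the other 6 libraries, so it was at least 106-fold higher. Nphs1, which encodes the slit diaphragm protein nephrin, went the other way. It was 1.58 CPM in naive replicate 2, 2.17 and 6.24 CPM in naive replicates 1 and 3 and 3.59, 2.90, 2.79 and 3.02 CPM in the allografts, so naive replicate 2 was the lowest of the 7. Nphs1 shares exons with antisense RNA Nphs1os on the opposite strand, and use of strand in the counting was not given in the sources used here. Of the 4 further glomerular genes listed, 0 were 10-fold higher in naive replicate 2, where 6.34% of the 28138 genes with a count were. Synpo, an actin regulator of podocyte foot processes, was 6.18 CPM in naive replicate 2 and at most 1.20 CPM elsewhere.

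Ren1 encodes renin, which juxtaglomerular cells of the arteriole release. It stood at 33.6 CPM in naive replicate 2 and had no count in the other 6 libraries, at least a 326-fold excess. Endothelial markers were high in the same library. The 8 endothelial genes summed to 617 CPM in naive replicate 2, 26.1 and 15.9 CPM in naive replicates 1 and 3 and 36.7 to 48.5 CPM in the allografts. Of the 8, 5 were at least 10-fold higher, where 6.34% of the 28138 genes with a count were. Emcn (251 CPM), Plvap (92.8 CPM), Kdr (78.5 CPM) and Ehd3 (74.4 CPM) led this list, with no marker of the 8 at 0 there. Their part in the Podxl value was not tested.

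The proximal tubule genes gave the largest sum on both scales. Together the 13 genes reached 6289 CPM in naive replicate 2. They summed to 16.1 and 154 CPM in naive replicates 1 and 3 and to 19.3 ± 1.96 CPM (SD, n = 4) in the allografts. Naive replicate 2 was at least 10-fold higher for 9 of the 13 and at least 100-fold higher for 7, with a median of 126-fold.

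Kap, the kidney androgen-regulated protein, was the most abundant member per gene length, at 4493 FPKM (fragments scaled to gene length and library size). Kap lies at chr6:133849851-133853762 on the minus strand of GRCm38. It stood at 3453 CPM in naive replicate 2 (95% exact Poisson interval 3436 to 3470), 0 and 7.39 CPM in naive replicates 1 and 3 and 0.454, 0, 0 and 0.103 CPM in the allografts. Naive replicate 2 was 467-fold above the next library, naive replicate 3. Of the 6 genes listed as androgen-dependent in kidney, 3 were at least 10-fold higher there, where 6.34% of all genes with a count were. Cyp2e1, a cytochrome P450 of liver and kidney, was 433 CPM in naive replicate 2 and 55.1 CPM in naive replicate 3. Its excess of 7.85-fold did not reach 10-fold. Cyp4a12a, a male-predominant cytochrome of mouse kidney, was 41.7 CPM and 0 in the other 6 libraries. Odc1 and Gusb, which many cells express, were 114 and 24.2 CPM and not the highest there. Odc1 was lowest in naive replicate 2, with 395 to 1408 CPM elsewhere, and Gusb was 10.8 to 81.5 CPM elsewhere. Of the 2 female-biased kidney genes, Slc7a12 had no count in naive replicate 2 and Prlr stood at 1.74 CPM.

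Cyp4b1, another cytochrome P450 of the proximal tubule, stood at 1381 CPM in naive replicate 2. It was 0 in both other naive libraries and 2.52, 2.84, 0 and 0 CPM in the allografts. Slc34a1 was 352 CPM against 0.264 and 0.0918 CPM in naive replicates 1 and 3 and 0, 1.64, 0.0979 and 0 CPM in the allografts. Naive replicates 1 and 3 and the allografts alike lay near 0 for both genes. Slc22a6 at 145 CPM and Slc22a8 at 49.9 CPM, the organic anion transporters whose promoters are printed above, had no count elsewhere, for excesses of at least 1406-fold and 484-fold. Lrp2, the endocytic receptor megalin, was 70.1 CPM in naive replicate 2, 0.525 CPM in allograft replicate 2 and 0 in the remaining 5 libraries. Its partner Cubn was 7.76 CPM, with at most 0.679 CPM elsewhere. Pck1, the gluconeogenic enzyme, was 121 CPM against at most 0.962 CPM, and Aqp1, the water channel of proximal tubule, thin limb and endothelium, was 82.6 CPM against at most 2.13 CPM.

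Naive replicate 3 stood out for the 4 proximal members below 10-fold. Fbp1, a gluconeogenic enzyme, was 247 CPM in naive replicate 2, 54.3 CPM in naive replicate 3 and 0 in the other 5 libraries. Slc5a2, the glucose transporter SGLT2, was 35.0 CPM and 12.5 CPM in the same libraries and 0 in the other 5. Miox, which oxidizes myo-inositol, was 284 CPM in naive replicate 2, 29.9 CPM in naive replicate 3, 0 in naive replicate 1 and 0, 2.68, 1.86 and 0.344 CPM in the allografts. Gatm, a creatine synthesis enzyme that other tissues express as well, was 60.7 CPM in naive replicate 2, 14.9 and 49.4 CPM in naive replicates 1 and 3 and 13.8 ± 2.87 CPM (SD, n = 4) in the allografts. Its 1.23-fold excess was the smallest among members that were highest in naive replicate 2.

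All 6 thick ascending limb genes exceeded 10-fold. They summed to 6213 CPM in naive replicate 2, 63.1 and 110 CPM in naive replicates 1 and 3 and 27.9 ± 12.8 CPM (SD, n = 4) in the allografts. Umod, which encodes uromodulin, a protein of normal urine, had the highest count of the members. It stood at 4096 CPM in naive replicate 2, 50.7 and 73.4 CPM in naive replicates 1 and 3 and 9.79, 8.95, 23.2 and 5.57 CPM in the allografts. All 7 libraries held Umod above the floor, and the 3 naive libraries lay above the 4 allografts. Egf, the precursor of epidermal growth factor made in thick limb and distal tubule, was 1067 CPM in naive replicate 2, 5.92 and 36.7 CPM in naive replicates 1 and 3 and 4.52, 2.72, 17.1 and 7.21 CPM in the allografts.

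Slc12a1, the furosemide-sensitive sodium, potassium and chloride cotransporter, was 798 CPM in naive replicate 2. It was 6.37 CPM in naive replicate 1, 0 in naive replicate 3 and 5.54, 5.31, 6.14 and 3.02 CPM in the allografts, a 125-fold excess over the next library. Kcnj1, the potassium channel ROMK of the same cells, was 160 CPM against 0.0566 and 0 CPM in the other naive libraries and 5.0, 6.23, 0 and 0.962 CPM in the allografts. The tight junction claudins Cldn16 and Cldn19, which let magnesium and calcium pass between cells, were 58.4 and 32.8 CPM. Cldn16 had no count elsewhere and was at least 566-fold higher, and Cldn19 reached 0.240 CPM in allograft replicate 4 alone. Umod and Egf were thus above the floor in every library, while the claudins had counts in naive replicate 2 and, for Cldn19, in 1 allograft.

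The distal tubule genes summed to 4148 CPM in naive replicate 2, 41.3 and 399 CPM in naive replicates 1 and 3 and 82.7 ± 16.1 CPM (SD, n = 4) in the allografts. The median excess of the 4 genes was 11.2-fold. Klk1, tissue kallikrein of the connecting tubule and of salivary glands, made up most of the sum. It was 3489 CPM in naive replicate 2, 3.47 and 302 CPM in naive replicates 1 and 3 and 61.0, 64.1, 96.6 and 56.5 CPM in the allografts. The next library, naive replicate 3, held 11.5-fold less. The 23 Klk1b genes, close relatives of Klk1 chosen after their values were seen, summed to 35.8 CPM in naive replicate 2, with 7 of them above the floor. How reads were shared among these near copies is not given in the sources used here.

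Slc12a3, the thiazide-sensitive cotransporter that marks the distal convoluted tubule, was 335 CPM in naive replicate 2. It was 12.4 and 31.1 CPM in naive replicates 1 and 3 and 3.50, 5.0, 3.30 and 2.61 CPM in the allografts, with no overlap between the naive and allograft libraries. Calb1, the calcium-binding calbindin, showed the same order, with 244 CPM in naive replicate 2, 22.0 and 66.0 CPM in naive replicates 1 and 3 and 8.54, 6.91, 6.17 and 13 CPM in the allografts. Pvalb, a calcium-binding protein of the early distal tubule and of muscle, was 79.7 CPM in naive replicate 2, 3.45 CPM in naive replicate 1, 0 in naive replicate 3 and 0.206 to 2.09 CPM in the allografts.

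The collecting duct genes showed the smallest excess of any tubule part. The 7 genes summed to 1706 CPM in naive replicate 2, 8.45-fold above naive replicate 3 at 202 CPM, with 0.698 CPM in naive replicate 1 and 96.1 ± 18.6 CPM (SD, n = 4) in the allografts. Of the 7, 3 passed 10-fold and the median was 7.57-fold. Aqp2, the vasopressin-regulated water channel of principal cells, accounted for most of both levels. It was 993 CPM in naive replicate 2, 0 and 164 CPM in naive replicates 1 and 3 and 94.4, 68.0, 84.4 and 58.6 CPM in the allografts. Fxyd4, a sodium pump regulator of the collecting duct, was 110 CPM in naive replicate 2 and 0 and 19.3 CPM in the other naive libraries, with an allograft mean of 9.28 ± 1.53 CPM (SD, n = 4). Both genes were above the floor in 6 libraries, and naive replicate 1 held no count of either.

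Aqp3, the water and glycerol channel of the basolateral membrane, was 65.9 CPM in naive replicate 2, 0 in both other naive libraries and 8.70, 3.18, 4.97 and 5.15 CPM in the allografts. The 3 subunits of the epithelial sodium channel, Scnn1a, Scnn1b and Scnn1g, were 22.4, 44.2 and 21.8 CPM in naive replicate 2. Elsewhere Scnn1a reached at most 1.13 CPM, Scnn1b 2.96 CPM and Scnn1g 3.13 CPM, each in an allograft. Slc26a4, the chloride and bicarbonate exchanger pendrin of intercalated cells, was 449 CPM in naive replicate 2, 0 and 19.1 CPM in the other naive libraries and 2.45, 1.17, 0.441 and 2.03 CPM in the allografts. Its excess was 23.5-fold, against 19.8-fold for Scnn1a, 14.9-fold for Scnn1b and 6.07-fold for Aqp2.

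Of the 4 genes that several segments share, Fxyd2, the gamma subunit of the sodium pump, was the most abundant. It was 2689 CPM in naive replicate 2, 10.4 and 177 CPM in naive replicates 1 and 3 and 27.2, 26.6, 26.6 and 29.9 CPM in the allografts. Cdh16, the kidney-specific cadherin, was 425 CPM in naive replicate 2 and 0.961 to 18.2 CPM elsewhere. Pax8 and Pax2, transcription factors that build the nephron in the embryo and persist in its epithelium, were 66.4 and 4.40 CPM. Pax8 had counts outside naive replicate 2 in allograft replicate 4 alone, at 2.03 CPM, and Pax2 reached 0.954 CPM in allograft replicate 3.

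**Figure D2:**
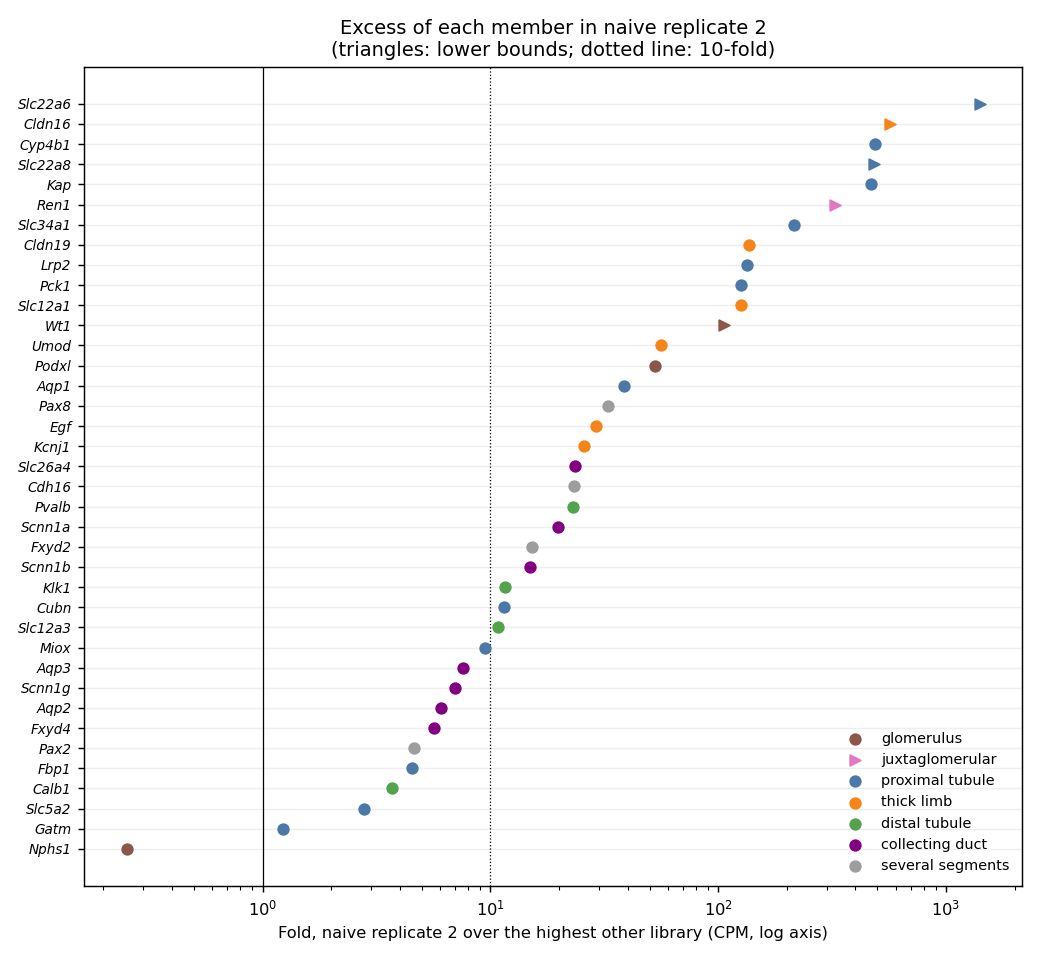
Fold of naive replicate 2 over the highest of the other 6 libraries for each of the 38 genes (CPM, log axis), coloured by nephron part; triangles are lower bounds against the 3-count floor and the dotted line is 10-fold. Medians are 126-fold for proximal tubule, 90.6-fold for thick limb, 11.2-fold for distal tubule and 7.57-fold for collecting duct, and the single value below 1 is Nphs1 at 0.254.

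By FPKM, which allows genes to be added across lengths, proximal tubule genes made up 46.3% of the summed signal of the 38 genes in naive replicate 2. Distal tubule genes made up 26%, thick limb genes 13.9%, collecting duct genes 7.38% and genes of several segments 6.10%. Glomerular genes and renin were 0.174% and 0.155%. The 4 most abundant genes were Kap at 4493 FPKM, Klk1 at 2979 FPKM, Umod at 1362 FPKM and Aqp2 at 642 FPKM. These shares are of RNA of the chosen genes and not of cells. Without Kap the proximal tubule share was 14.2% and the distal share 41.5%, so that the order of the parts rests on this gene.

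The traces in the other 6 libraries were made up differently. In the 4 allografts, collecting duct genes gave 36.2% to 48.5% of the FPKM signal and distal genes 37.2% to 49.7%, against 4.09% to 5.08% for proximal genes. Collecting duct genes led in allograft replicate 1, at 48.5% against 37.2% distal, and distal genes led in the other 3. These allograft shares rest mostly on Aqp2 and Klk1. Aqp2 gave 35.8 to 57.2 FPKM, of collecting duct sums of 44.0 to 68.2 FPKM. Klk1 gave 45.6 to 78.1 FPKM, of distal sums of 48.2 to 79.9 FPKM. Naive replicate 3 had 50.5% distal, 22.3% collecting duct and 13.8% proximal signal. Naive replicate 1 had 49.0% thick limb, 29.7% distal and 0.411% collecting duct signal, with Umod its highest member. These makeups rest on small sums, and their cause was not tested.

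**Figure D3:**
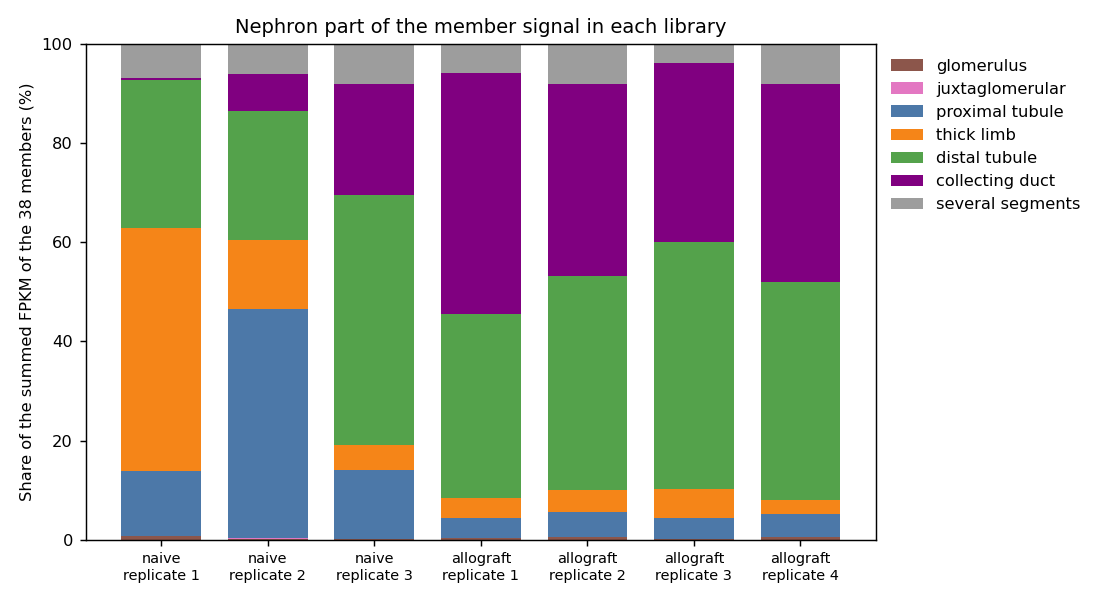
Share of the summed FPKM of the 38 genes that each nephron part gives in each of the 7 libraries (stacked bars, percent). Proximal genes give 46.3% in naive replicate 2 and 4.09% to 5.08% in the allografts, where distal and collecting duct genes lead. Klk1 and Aqp2 make up most of that distal and collecting duct signal.

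Ratios between genes within a library show the same contrast on the CPM scale. Kap was 3.48 times Aqp2 in naive replicate 2, 0.0452 times in naive replicate 3, 0.00481 times in allograft replicate 1, 0.00176 times in allograft replicate 4 and 0 in the other two allografts. Umod was 4.12 times Aqp2 in naive replicate 2, 0.449 times in naive replicate 3 and 0.0949 to 0.274 times in the allografts. Klk1 was 3.51 times Aqp2 in naive replicate 2, 1.85 times in naive replicate 3 and 0.646 to 1.14 times in the allografts. Within the proximal tubule, Fbp1 was 0.0715 times Kap in naive replicate 2 and 7.36 times Kap in naive replicate 3. As a percentage of the level in naive replicate 2, the 17 members above the floor in naive replicate 3, leaving out Nphs1, ran from 0.0261% (Slc34a1) to 81.4% (Gatm), with a median of 8.67%. In allograft replicate 1 the 23 such members ran from 0.0132% (Kap) to 22.4% (Gatm), with a median of 1.75%. The percentage thus differed between genes within each of these libraries.

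A further 49 nephron genes, listed with earlier results of these data known, were high in the same library. Their median excess in naive replicate 2 was 18.7-fold. Of the 49, 30 were at least 10-fold higher, where 6.34% of the 28138 genes with a count were. That share also stands beside the counts by segment that follow. In the proximal tubule, 11 of 18 were at least 10-fold higher. Gpx3, the plasma glutathione peroxidase, was 2719 CPM in naive replicate 2 and 517 CPM in naive replicate 3. Akr1c21, a hydroxysteroid dehydrogenase, was 852 CPM, and Slc27a2, a fatty acid transporter, was 547 CPM, against at most 38.4 and 6.61 CPM elsewhere. Napsa, an aspartic protease of proximal tubule and lung, was 234 CPM in naive replicate 2 and 34.9 to 61.5 CPM in naive replicate 3 and the allografts.

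In the thin limb, which the 38 genes do not cover, 3 of 3 genes were at least 10-fold higher. Slc14a2, the urea transporter of the inner medulla, was 484 CPM, and Fst, which encodes follistatin, was 24.1 CPM. In the thick limb 3 of 5 passed 10-fold. The claudin Cldn10 was 301 CPM, the channel subunit Bsnd 90.5 CPM and Tmem72 83.3 CPM, with Bsnd at 47.0 CPM in naive replicate 3. Of the 3 distal genes, 1 passed. The calcium-binding S100g was 642 CPM in naive replicate 2, 74.1 CPM in naive replicate 3, 0 in naive replicate 1 and 31.9 to 44.2 CPM in the allografts, while the magnesium channel Trpm6 was 15.2 CPM and the calcium channel Trpv5 4.42 CPM.

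In the collecting duct 7 of 11 passed, led by genes of intercalated cells. The proton pump subunit Atp6v1g3 was 1839 CPM in naive replicate 2 and at most 27.3 CPM elsewhere. The ammonia channels Rhcg and Rhbg were 456 and 267 CPM, and the bicarbonate transporter Slc4a9 was 279 CPM. All 5 epithelial genes of several segments passed, among them Epcam at 399 CPM, Tfcp2l1 at 174 CPM and Pkhd1 at 70.2 CPM. Genes of each tubule stretch from proximal tubule to collecting duct were thus highest in naive replicate 2, and the podocyte gene Nphs1 was not.

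Sums of lists for other organs were low in naive replicate 2 beside those of the nephron. Its 6 lung epithelium genes and its 5 genes each of small intestine and exocrine pancreas had 0 counts. The 6 liver genes summed to 14.0 CPM there, against 10.3 CPM in naive replicate 3 and 6.50 CPM in naive replicate 1, with the albumin gene Alb at 4.22 CPM. Of the 6, 3 were at least 10-fold higher there, namely Fga at 4.24 CPM, Fgb at 3.30 CPM and Apoc3 at 1.82 CPM, with no count elsewhere. The 3 urothelial genes summed to 6.31 CPM there and to 0 to 0.227 CPM elsewhere, and 2 of the 3 were at least 10-fold higher. Over all 28138 genes with a count, 6.34% were at least 10-fold higher there. The 5 adrenal cortex genes summed to 1.34 CPM, against 1.70 CPM in naive replicate 3, 17.8 CPM in naive replicate 1 and 8.69 to 10.9 CPM in the allografts. The 6 heart muscle genes summed to 2.00 CPM, against 0 and 9.22 CPM in naive replicates 1 and 3 and 1.07 to 5.59 CPM in the allografts. Of these, Tnni3 reached 9.22 CPM in naive replicate 3, Myh6 had counts in naive replicate 2 alone, at 0.637 CPM, and Myl2 and Tnnt2 had no count in any library. The lung list stood elsewhere at 668 CPM in naive replicate 3, 238 to 656 CPM in the allografts and 0.283 CPM in naive replicate 1. It was thus high in the 5 libraries that held Aqp2 at 58.6 to 164 CPM, and its part in those traces was not tested.

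**Figure D4:**
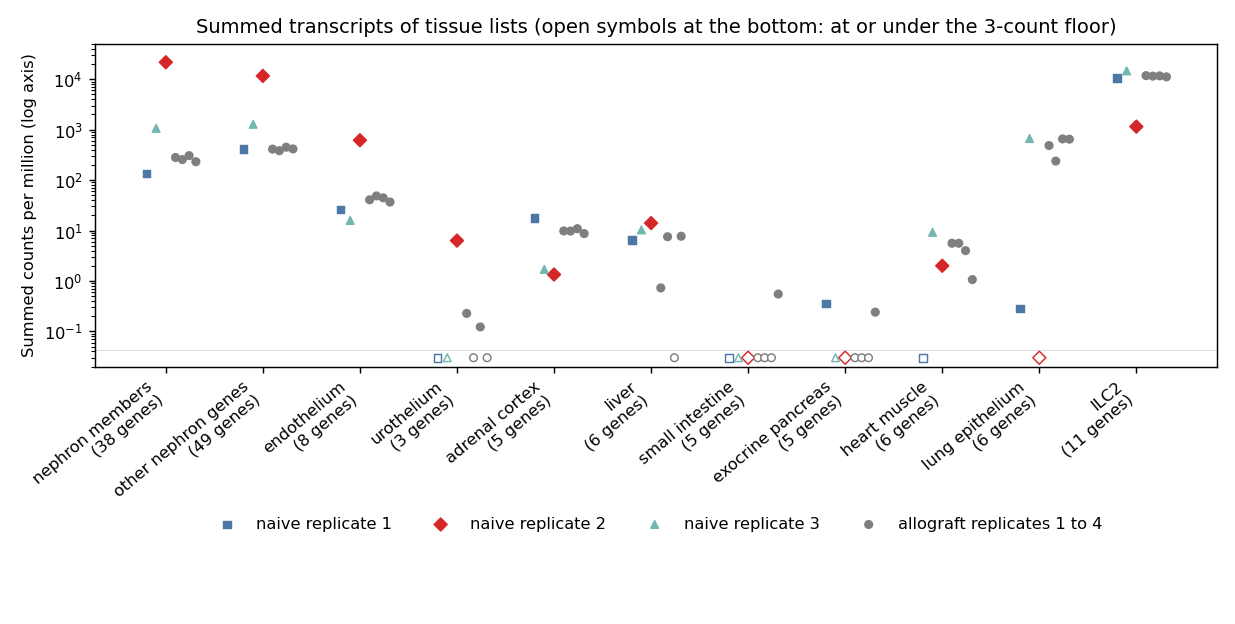
Summed CPM (log axis) of lists of genes for ILC2s, nephron and other tissues in each of the 7 libraries; 1 symbol is 1 library, and open symbols at the bottom are sums at or under 3 counts. Naive replicate 2 is lowest for ILC2 genes (1147 CPM) and highest for nephron and endothelial genes, and it has no count of lung epithelium, small intestine or exocrine pancreas genes.

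Naive and allograft libraries were then compared as the study groups them. Over all 7 libraries, edgeR's quasi-likelihood test kept 27 of the 38 genes after its filter on low counts, and 0 passed an adjusted p of 0.05, where 0.0353% of the 17015 genes tested did (0.0294% higher and 0.00588% lower in allografts). DESeq2 called 7 of the 38, where it called 4.35% of 28138 genes, and 14 of the 27 had an unadjusted edgeR p under 0.05, where 10.3% of all genes did. All 27 were lower in allografts, with a median log2 fold change of -4.94, against -0.01 for all genes tested. With DESeq2's size factors in the same test, the 2 medians were -5.34 and -0.20. The smallest adjusted p was that of Calb1 (log2 fold change -4.13, SE 0.91, adjusted p = 0.145 by edgeR), followed by Slc12a3 (-5.66, SE 1.26, adjusted p = 0.147 by edgeR). These values contain naive replicate 2, for whose excess the genes were chosen, and support nothing about transplantation.

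Without naive replicate 2, 2 naive libraries were set against the 4 allografts. By edgeR 1 of 27 members tested was called, Aqp3, where 3.1% of 18037 genes were called in either direction, 3.0% higher and 0.0998% lower in allografts. The share of members called was thus near that of all genes. DESeq2 called 9 of 33, where it called 12.2% of 26299 genes, and 7 of the 27 had an unadjusted edgeR p under 0.05, where 20.2% of all genes did. Aqp3 had no count in either naive library. The allografts averaged 5.50 ± 2.31 CPM (SD, n = 4), at least 87.7-fold above the mean 3-count floor of the 2 naive libraries. Its fitted log2 fold change of 10.79 (SE 1.42, adjusted p = 0.0413 by edgeR) depends on the prior count. Over 10 alternatives the adjusted p of Aqp3 ran from 7.2e-09 to 0.769, and 4 of the 10 called it. Leaving out any 1 allograft ended the call, with fitted log2 fold changes of 10.44 to 11.03, and in those fits 0 genes of any kind were called. Among the 28 further nephron genes tested, 1 was called, Rhbg, at a fitted log2 fold change of 10.11 (SE 1.63, adjusted p = 0.0461 by edgeR), with 0 counts in both naive libraries and 1.40 to 6.26 CPM in the allografts. That call was also lost without the filter, with the replicate block and with any 1 allograft left out.

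The members showed no common direction in that comparison. Of the 27, 13 were higher and 14 lower in allografts, with a median log2 fold change of -0.13, against 0.23 for all genes. Umod (-2.44, SE 0.59, adjusted p = 0.0843 by edgeR), Slc12a3 (-2.65, SE 0.60, adjusted p = 0.0720) and Calb1 (-2.41, SE 0.57, adjusted p = 0.0788) did not pass. In each of these 3 genes, both naive libraries lay above all 4 allografts. That held for 3 of the 33 members with a count outside naive replicate 2, where 5.13% of all genes did so. The opposite order held for 4 of the 33, Aqp1, Aqp3, Scnn1b and Scnn1g, where 15.9% of all genes did so. The remaining pair, naive replicates 1 and 3, differed widely between themselves. Aqp2 was 0 and 164 CPM in them and 76.4 ± 16.0 CPM (SD, n = 4) in the allografts, and its log2 fold change was -0.17 (SE 1.88, adjusted p = 0.977 by edgeR). Without naive replicate 3 it was 14.57, and without naive replicate 1 it was -1.19.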

How the data were processed

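Values came from 2 tables that the authors deposited for 7 libraries, with groups and replicate numbers from the sample titles. The deposited counts are whole numbers per gene, unnormalized, for 55335 Ensembl identifiers. The FPKM values that the authors deposited equal the counts scaled to library size and gene length: over 7340 genes, the ratio of FPKM to CPM differed between libraries by 1 common factor (SD of its log2 at most 0.00352). Per the labels' protocols, RNA was column purified and amplified as full-length cDNA by a single-cell kit. They name no molecular identifiers, so reads are not taken as independent molecules. The submitters' processing notes name mm10, FastQC 0.11.5, STAR 2.5.3a, StringTie 1.3.1c and DESeq2 1.16.1, with no role for each. The annotation and the use of strand in counting are not given in the sources used here.

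CPM was computed from the library total, with 3 counts as the floor. Totals were 29107326 to 53044907 counts. The comparison of naive with allograft libraries used edgeR 4.0.16 (R 4.3.3) quasi-likelihood fits over all genes, with TMM, filterByExpr and Benjamini-Hochberg adjustment, after tests on simulated data, once over 7 libraries and once without naive replicate 2. Fold changes are allograft over naive. The alternatives were DESeq2 1.42.0, its size factors, no filter, a replicate block and leaving out each library. Folds of naive replicate 2 are over the highest other library, or over the highest 3-count floor where the others were at or under it. Coordinates are from GENCODE M21 (GRCm38, the sequence of mm10), which held 55154 of the identifiers. No 2 libraries held identical counts.

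Members and lists were chosen with earlier results of these data known. Every member is named, with up to 4 genes of highest CPM in naive replicate 2 from each other list, and outside all lists the 10 such genes with an excess of at least 100-fold. A few genes that this rule names are not reported here. The replicates are separate pools of animals, and p-values measure the spread between pools.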

Additional observations from a re-analysis of the deposited data

Results flagged for a closer look

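In 37 checks of the 4 allografts, over members and sums of nephron parts, 1 allograft stood apart from the other 3 in 6. A gene with counts in 1 allograft alone is always flagged by this rule, as Lrp2, Pax8 and Cldn19 were. The nominal rate of 1 in 20 (about 1.85) therefore does not apply, and the 6 are not read as an excess. Allograft replicate 2 held Slc34a1 at 1.64 CPM, with 0 to 0.0979 CPM in the other 3, and Lrp2 at 0.525 CPM, with no count in them. In allograft replicate 4, Pax8 reached 2.03 CPM and Cldn19 0.240 CPM, and neither had a count in the others. Pax2 reached 0.954 CPM in allograft replicate 3 and at most 0.0926 CPM in the rest. The distal tubule sum of allograft replicate 3 was 106.6 CPM, and the rest lay between 72.3 and 76.7 CPM.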

How the results depend on the processing

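Over all 7 libraries the count of members called was 0 in edgeR (6 of all 17015 genes) and 7 in DESeq2 (1224 of 28138). With 1 library left out it was 0 to 1 (0 to 560 of all genes), the 1 being Aqp3 without naive replicate 2. Without naive replicate 2 it was 1, against 9 in DESeq2 (3205 of all 26299 genes) and 0 without the filter (118 of 26299). With 1 more library left out it was 0 to 14. Leaving out naive replicate 1 gave 14 (6866 of all 20184 genes), naive replicate 3 gave 6 (2737 of 20216), and each allograft gave 0 (0 of all genes). Where 1 naive library remained, it was assumed to vary like the allografts. The causes were not tested. With the replicate block 0 members were called in both comparisons, but so were 0 of all 17015 and 0 of all 18037 genes. Deviations from the group means correlated little between same-numbered libraries (r across 16870 genes of 0.0656, -0.0311 and 0.0183 for numbers 1, 2 and 3). Not every library correlated best with its own number. The naive means include naive replicate 2, which moves the deviations of the other naive libraries, so these correlations cannot decide whether the numbers mark pairs. The main fits did not take the numbers as pairs. The log2 fold changes without naive replicate 2 reversed for Aqp2 (4.87 with the block, 14.57 without naive replicate 3) and Klk1 (1.19 and 4.32 likewise). With 1 library left out they ran from -1.19 to 14.57 for Aqp2 and from -2.22 to 4.32 for Klk1. At 100-fold, 12 members passed in place of 27. Shares of the signal in naive replicate 2 moved with the scale and the genes. By CPM they were 0.584% for glomerulus, 29.0% for proximal tubule, 28.6% for thick limb, 19.1% for distal tubule, 7.86% for collecting duct and 14.7% for several segments. Without Kap they were, in the same order, 0.278%, 14.2%, 22.2%, 41.5%, 11.8% and 9.75%, with 0.248% for the juxtaglomerular gene. With the further nephron genes they were 0.126%, 45.5%, 11.2%, 24.4%, 12.8% and 5.24%, with 0.104% for the juxtaglomerular gene. Of the other values for single genes, 83 kept direction and side of the threshold, 10 passed it newly and 6 no longer passed.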

Other observations

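Outside every list, the genes with the highest levels in naive replicate 2 among those at least 100-fold above the next library were led by Ppp1r1a, an inhibitor of protein phosphatase 1, at 1014 CPM. Wfdc15b followed at 911 CPM, Kng2, a kininogen, at 667 CPM, and Ckmt1, the mitochondrial creatine kinase, at 544 CPM. Tmem27, the collectrin that carries amino acid transporters to the proximal brush border, was 336 CPM, and Pdzk1, a scaffold of the same membrane, was 311 CPM. Keg1 was 268 CPM. Ces1f, a carboxylesterase, was 214 CPM, and Ugt3a2, a glycosyltransferase, was 213 CPM with no count in the other 6 libraries.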
